A study of Mus musculus with 10 samples.

Results

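Bone-marrow-derived macrophages that had received 10 nM Kdo2-lipid A for 1 h were compared with macrophages that had received 0.03 nM for 2 h. Each group held 2 libraries, so 4 of the 10 libraries of the series enter the comparison, and the other 6 (untreated cells, 0.03 nM at 1 h and 10 nM at 2 h, with 2 libraries each) serve as its frame. Kdo2-lipid A is the lipid A and inner core sugar portion of lipopolysaccharide and activates Toll-like receptor 4 (TLR4). The cells came from C57BL/6J mice with no genetic change named in the labels, and every group, untreated cells included, had been differentiated from marrow in macrophage colony-stimulating factor. Per the labels the libraries of a group come from experiments 1 and 2. Whether an experiment pooled several mice is not given in the sources used here, so p-values measure the spread between these libraries. The comparison asks whether the response to the low dose at the later time is a delayed or a scaled copy of the early response to the high dose. Dose and time both differ between the groups, and their parts in a difference cannot be told apart. The untreated libraries are labelled 0 h, so differences from them cannot be told apart from effects of time or handling.

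TLR4 signals at the cell surface through the adaptors MyD88 and TIRAP, which lead to NF-kB and MAP kinases within minutes, and from endosomes through TRIF, which leads to IRF3 and interferon beta. Immediate-early genes and genes of feedback inhibitors are transcribed first, cytokine and chemokine genes soon after. Genes that need new protein, such as a first wave of interferon, follow later. Transcripts that are short-lived can fall as quickly as others rise when their synthesis stops.

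The 4 libraries held 33179599 and 38351911 counts at 0.03 nM 2 h (experiments 1 and 2) and 39107116 and 42167096 counts at 10 nM 1 h. Of 23284 genes in the count table, 12918 had enough counts to be tested. Macrophage markers were all detected, with summed levels of 26200 to 26570 CPM (counts scaled to library size with TMM factors) at 0.03 nM 2 h and 31370 to 32540 CPM at 10 nM 1 h, and 3 of 8 (Emr1, Mertk and Cd14) were called higher at 10 nM 1 h. Neutrophil markers summed to 122 to 124 and 125 to 129 CPM (2 of 11 tested called), dendritic cell markers to 554 to 593 and 668 to 705 CPM (1 of 10, H2-Ab1, called), and stromal and endothelial markers to 68.7 to 117 and 71.9 to 136 CPM. The neutrophil and dendritic cell sums rest largely on Csf3r and H2-Ab1. Over the 4 libraries Csf3r held 14713 counts, against at most 969 for any other neutrophil marker. H2-Ab1 held 88539 counts, against at most 3198 for any other dendritic cell marker. B cell markers summed to 6.34 to 7.01 and 5.13 to 8.13 CPM, mast cell markers to 2.61 to 4.57 and 3.99 to 5.06 CPM (1 of 2 tested called), and erythroid markers to at most 0.116 CPM with Hbb-b1, Hbb-b2 and Alas2 at 0 counts. T and NK cell markers summed to 31.9 to 33.3 and 34.4 to 37.6 CPM, nearly all of it Cd4, with Cd3g at 0. Every marker called was higher at 10 nM 1 h, as were 18.4% of all tested genes. The part of other cells in the results was not tested. In bulk RNA, fewer cells of a type and less RNA per cell cannot be told apart.

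A difference between the 2 libraries at 0.03 nM 2 h bears on many values below. At 0.03 nM 2 h the 2 experiments differed from each other more than in any other group: over 6871 well-measured genes the log2 difference between experiments had a standard deviation of 0.267, against 0.107 to 0.186 in the other 4 groups. It also ran with exonic length (Spearman -0.71 across genes, against -0.03 to 0.41 elsewhere). Long transcripts were thus lower in the experiment 2 library than in that of experiment 1. Which of the 2 libraries departs was not tested. Genes within a library share its preparation and are not independent replicates.

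The groups differed in many genes, and the widest differences lay toward 10 nM 1 h. Of 12918 genes, 4515 (35%) passed edgeR's quasi-likelihood test with a threshold of 0.05 on the adjusted p (Benjamini-Hochberg, all tested genes) and are named called genes. Of these 2374 (18.4%) were higher at 10 nM 1 h and 2141 (16.6%) were higher at 0.03 nM 2 h. A difference of at least 2-fold was called for 643 genes higher at 10 nM 1 h (4.98%) and 539 higher at 0.03 nM 2 h (4.17%). For 68.3% of genes the 95% interval of the difference lay within 2-fold either way, and the median difference over all genes was -0.02 on the log2 scale. The split between directions depends on scaling: 52.6% of the called genes were higher at 10 nM 1 h with TMM factors and 16.1% when libraries were scaled by their totals, which shifts every difference by about -0.30. With either 10 nM 1 h library left out, 2875 or 2891 genes were called.

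**Figure D1:**
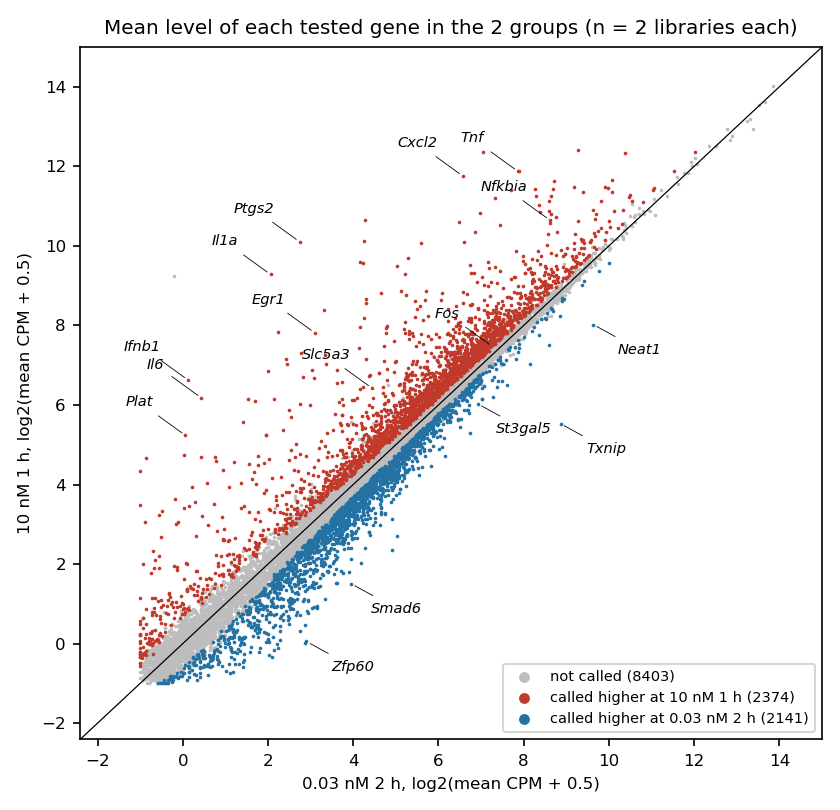
Mean level of each of 12918 genes at 0.03 nM 2 h (x axis) and 10 nM 1 h (y axis) as log2(mean CPM + 0.5), n = 2 libraries each; red, called higher at 10 nM 1 h (2374); blue, called higher at 0.03 nM 2 h (2141); grey, not called; line, equal levels. The red points reach much farther from the line than the blue ones; the grey point far above the line is Nov, which was high in 1 library of the 10 nM 1 h group.

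Promoters of 3 genes in each direction are shown first, the first in order of difference among those called whose mean reached 1 log2 CPM, because they belong to the opposite ends of the comparison: Ptgs2, Il1a and Ifnb1 rank highest at 10 nM 1 h relative to 0.03 nM 2 h, and Zfp60, Txnip and Zfp472 lowest. Each is the 250 bases before the RefSeq start site (GRCm38.p6, written 5′ to 3′ on the gene's strand). Capitals mark matches on either strand to an NF-kB pattern (GGG, any 5 bases, CC) or an AP-1 pattern (TGANTCA).
Ptgs2, chr1:150099781-150100030, plus strand: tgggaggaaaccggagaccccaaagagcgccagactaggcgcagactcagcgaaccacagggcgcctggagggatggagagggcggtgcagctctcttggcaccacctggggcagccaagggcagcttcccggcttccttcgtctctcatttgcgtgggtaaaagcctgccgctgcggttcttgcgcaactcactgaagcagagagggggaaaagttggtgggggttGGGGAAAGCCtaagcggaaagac
Il1a, chr2:129309973-129310222, minus strand: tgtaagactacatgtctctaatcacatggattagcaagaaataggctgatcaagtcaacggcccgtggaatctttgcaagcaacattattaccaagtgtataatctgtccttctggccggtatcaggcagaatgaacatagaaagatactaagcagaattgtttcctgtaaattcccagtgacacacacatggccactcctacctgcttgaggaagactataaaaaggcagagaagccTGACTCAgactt
Ifnb1, chr4:88522795-88523044, minus strand: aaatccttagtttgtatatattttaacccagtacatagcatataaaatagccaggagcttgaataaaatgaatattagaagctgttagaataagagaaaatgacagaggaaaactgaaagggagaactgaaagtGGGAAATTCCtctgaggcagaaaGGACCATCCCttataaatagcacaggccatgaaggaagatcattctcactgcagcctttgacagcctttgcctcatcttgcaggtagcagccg
Zfp60, chr7:27731159-27731408, plus strand: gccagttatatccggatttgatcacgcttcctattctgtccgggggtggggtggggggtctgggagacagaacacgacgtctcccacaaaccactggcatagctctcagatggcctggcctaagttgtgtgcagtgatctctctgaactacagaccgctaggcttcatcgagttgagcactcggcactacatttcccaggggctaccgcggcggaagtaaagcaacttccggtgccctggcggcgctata
Txnip, chr3:96557707-96557956, plus strand: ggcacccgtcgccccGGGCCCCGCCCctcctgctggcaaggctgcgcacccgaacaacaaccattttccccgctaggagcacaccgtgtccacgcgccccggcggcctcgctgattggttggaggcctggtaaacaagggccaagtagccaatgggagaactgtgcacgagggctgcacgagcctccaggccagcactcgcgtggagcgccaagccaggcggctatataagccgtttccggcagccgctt
Zfp472, chr17:32965581-32965830, plus strand: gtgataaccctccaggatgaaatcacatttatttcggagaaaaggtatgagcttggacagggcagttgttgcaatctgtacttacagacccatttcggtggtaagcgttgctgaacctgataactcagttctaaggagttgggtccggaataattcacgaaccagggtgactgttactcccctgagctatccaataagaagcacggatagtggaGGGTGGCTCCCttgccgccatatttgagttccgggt

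Ptgs2 held 1 NF-kB match in this window, Il1a 1 AP-1 match and Ifnb1 2 NF-kB matches, while Zfp60 held none and Txnip and Zfp472 each held a stretch that matches on both strands. The NF-kB pattern is loose: 50.8% of all 32851 promoters of the table hold it, and 53.5% of its 27025 genes have a promoter with it. Shares below are of genes. Of the tested genes, 9119 were matched to the table by symbol, and 71.6% of these had a promoter with it, against 76.2% of 762 genes induced at 10 nM 2 h and higher at 10 nM 1 h, and 22 of 30 genes induced at 10 nM 2 h but higher at 0.03 nM 2 h. AP-1 matches were found for 6.55%, 9.19% and 0 of 30 (which allows up to 10%), CRE matches (TGAC followed directly by GTCA) for 3.59%, 5.12% and 1 of 30, and serum response element matches (CArG box) for 1.58%, 2.89% and 0 of 30. The interferon response element (GAAA, any 2 bases, GAAA) matched for 3.98%, 6.30% and 4 of 30. Over all genes of the table the shares were 8.97% for AP-1, 2.03% for CRE, 1.81% for the CArG box and 3.99% for the interferon response element. In induced genes that were not called (405 with a promoter), AP-1 and the interferon response element each matched for 9.88%, above their shares in genes higher at 10 nM 1 h. A match is a run of letters and no evidence of binding.

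By the same order, the 12 largest differences toward 10 nM 1 h were in Ptgs2, Il1a, Ifnb1, Tnfsf9, Il6, Plat, Errfi1, Il12b, Clcf1, Csrnp1, Cxcl1 and Il1b, of which 6 are on the cytokine or chemokine lists used here. Ptgs2 (chr1:151947254-151955142 in mm9), the inducible cyclooxygenase that starts prostaglandin synthesis, was measured at 6.93 and 5.45 CPM at 0.03 nM 2 h and at 1148 and 1049 CPM at 10 nM 1 h (experiment 1, then experiment 2, here and below). It was 178-fold higher at 10 nM 1 h (log2 difference 7.48 ± 0.28 SE, adjusted p = 2.7e-06). Il1a, an alarm cytokine, stood at 3.72 and 3.61 against 597 and 646 CPM, and Ifnb1, the interferon made through TRIF and IRF3, at 0.438 and 0.741 against 103 and 94.0 CPM, differences of 169-fold and 163-fold. In all 12 both values at 10 nM 1 h were above both values at 0.03 nM 2 h. Tnfsf9, the ligand of the co-stimulatory receptor 4-1BB, had 17.7 and 19.8 against 1661 and 1555 CPM (85.6-fold), while untreated cells had 2.00 and 2.19 CPM. Errfi1, an inhibitor of the EGF receptor, had 18.3 and 18.7 against 1084 and 1143 CPM (60.2-fold). Plat, tissue plasminogen activator, had 0.657 and 0.430 against 36.5 and 37.9 CPM (68.8-fold), and at 0.03 nM 2 h it was not called against untreated cells (adjusted p = 0.052).

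**Figure D2:**
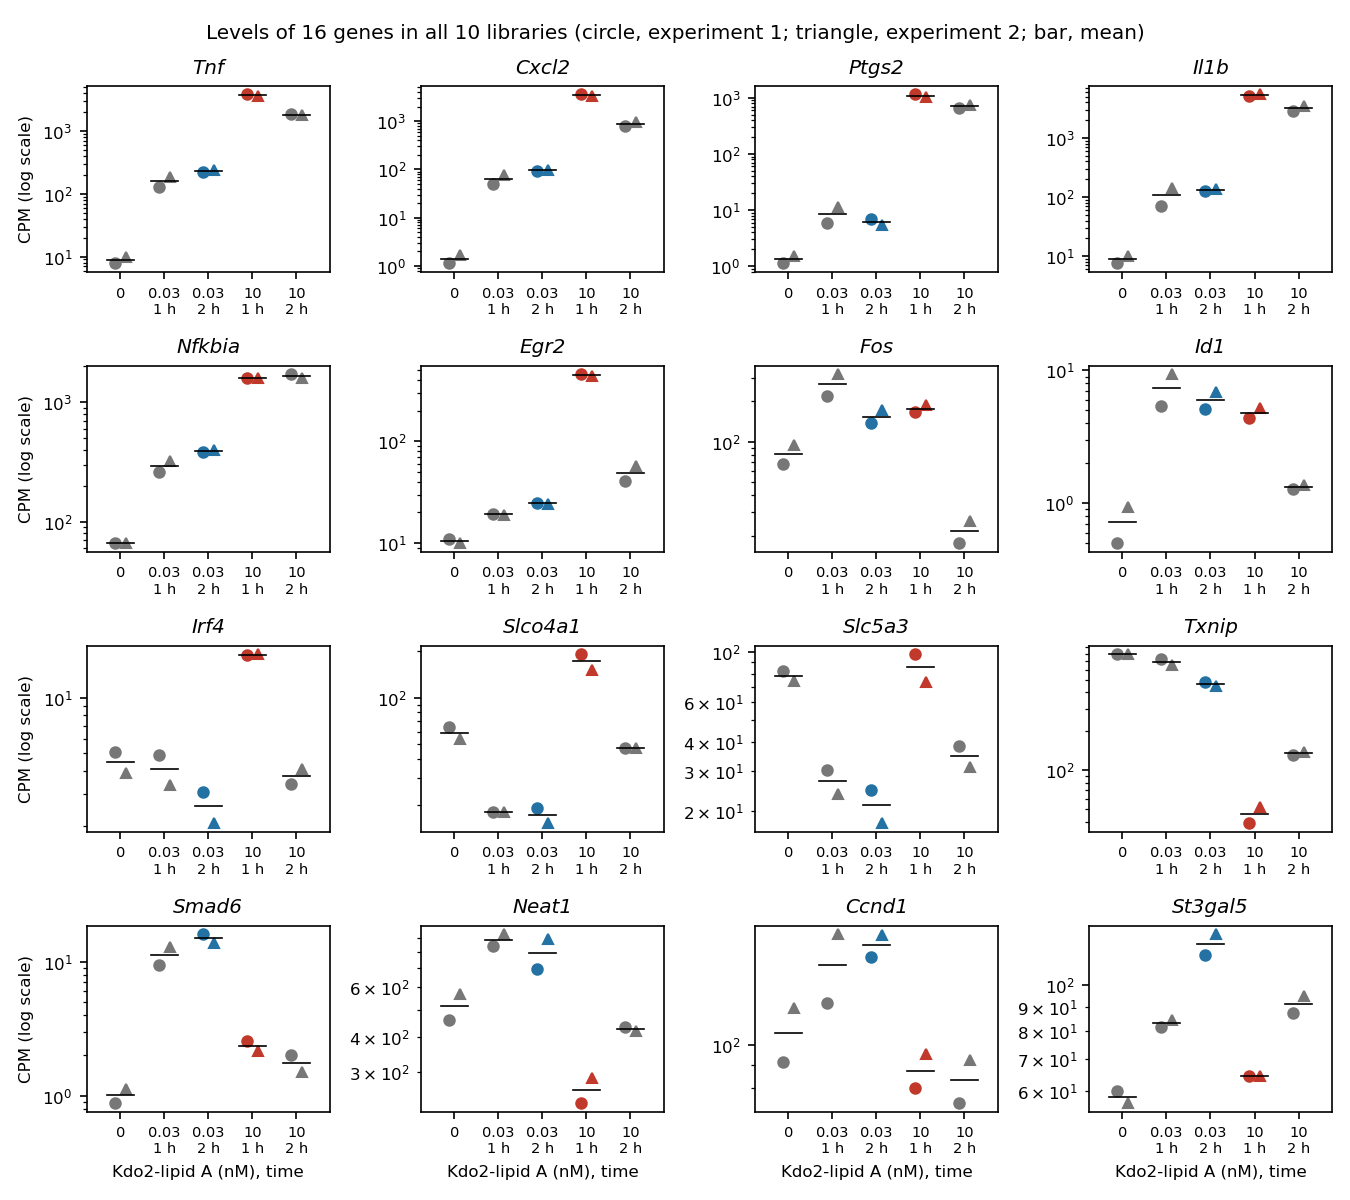
CPM on a log axis of 16 genes in all 10 libraries, by dose and time; circles, experiment 1; triangles, experiment 2; bars, group means of n = 2; red, 10 nM 1 h; blue, 0.03 nM 2 h. The 4 genes of the top row sit above all other groups at 10 nM 1 h, Fos and Id1 overlap between the red and blue groups, and Txnip, Smad6, Neat1, Ccnd1 and St3gal5 are higher in the blue group.

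Inflammatory cytokine genes, early and late ones together, were mostly higher at the high dose. The counts of this list and of those that follow stand beside shares over all tested genes. These shares were 18.4% higher at 10 nM 1 h and 16.6% higher at 0.03 nM 2 h. Of 22 tested inflammatory cytokine genes, 20 were higher at 10 nM 1 h, the other 2 were not called, and the median difference was 3.93 on the log2 scale, against -0.02 over all genes. Tnf, the first macrophage cytokine to appear, was at 222 and 243 CPM at 0.03 nM 2 h and 3834 and 3662 CPM at 10 nM 1 h, 16.1-fold higher. At 0.03 nM 1 h it was already at 130 and 187 CPM, so the low dose level changed little between 1 h and 2 h compared with the distance to the high dose. Il1b, made as an inactive precursor, was at 125 and 138 against 5176 and 5422 CPM (40.3-fold). Csf2, a myeloid growth factor, had 4 counts in the 0.03 nM 2 h libraries together and 0 in untreated cells, against 26.2 and 23.8 CPM at 10 nM 1 h. Ltb (log2 difference -0.70, adjusted p = 0.27) and Inhba (1.03, adjusted p = 0.22) were the 2 that were not called.

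Chemokines, which recruit leukocytes, followed the same order, with 16 of 19 higher at 10 nM 1 h and a median difference of 3.10. Cxcl1 and Cxcl2 attract neutrophils. Cxcl1 was at 19.0 and 17.7 against 832 and 698 CPM (41.8-fold), and Cxcl2 at 92.4 and 97.1 against 3557 and 3348 CPM (36.4-fold). Ccl3 and Ccl4, which attract monocytes and T cells, were 11.4-fold and 17.3-fold higher at 10 nM 1 h. Smaller distances were measured for Cxcl10, a ligand of the receptor CXCR3 that responds to interferon and was at 166 and 179 against 1532 and 1422 CPM (8.56-fold), and for Ccl5, at 29.2 and 48.8 against 216 and 249 CPM (5.94-fold, adjusted p = 0.013). The Ccl5 call was lost without either 0.03 nM 2 h library (adjusted p = 0.079 and 0.064). Cxcl16, Ccl6 and Ccl8 were not called.

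Most immediate-early genes, many of them encoding transcription factors, were also higher at 10 nM 1 h than in the 0.03 nM cells, which had been stimulated for longer. Of 31 genes, 27 were higher at 10 nM 1 h and 1, Klf10, was higher at 0.03 nM 2 h; the median difference was 2.20. Egr2 was at 24.9 and 24.3 CPM at 0.03 nM 2 h, 457 and 442 CPM at 10 nM 1 h and only 40.5 and 57.4 CPM at 10 nM 2 h. Egr1 was at 7.47 and 8.61 against 217 and 233 CPM (27.9-fold), and at 0.03 nM it was higher at 1 h (17.3 and 22.8 CPM) than at 2 h in both experiments. Csrnp1, Fosl2, Ier3 and Gadd45b were 44.3-fold, 6.80-fold, 6.35-fold and 5.92-fold higher at 10 nM 1 h. Fos, a subunit of AP-1, was 1 of 3 that were not called, with Jund and Mafk: its 137 and 171 CPM at 0.03 nM 2 h overlapped with 166 and 187 CPM at 10 nM 1 h (log2 difference 0.19 ± 0.25, adjusted p = 0.61); with an exonic length offset and a replicate block it was called (0.28, adjusted p = 0.036), and with scaling by totals the sign turned (-0.10, not called). Fos was highest at 0.03 nM 1 h, at 220.5 and 318 CPM, and below untreated levels at 10 nM 2 h, at 17.5 and 25.5 CPM. Klf10, chosen here after its values were seen, was at 39.6 and 37.2 against 26.3 and 28.0 CPM (log2 difference -0.50 ± 0.08, adjusted p = 0.00056).

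NF-kB subunits and inhibitors, many of which are NF-kB targets that restrain the pathway, were mostly higher at 10 nM 1 h as well. Of 18 genes, 16 were higher at 10 nM 1 h, with a median difference of 1.36. Their median against untreated cells was 1.73 at 0.03 nM 2 h and 3.12 at 10 nM 1 h. Nfkbia, which holds NF-kB in the cytosol, was at 382 and 401 against 1609 and 1595 CPM (4.09-fold), with 66.1 and 65.7 CPM in untreated cells. Tnfaip3, encoding the ubiquitin-editing enzyme A20, was at 250 and 224 against 3809 and 3734 CPM (15.9-fold). Nfkbiz and Nfkbid, atypical nuclear members of the family, were 8.90-fold and 5.35-fold higher, and Nfkbib 3.56-fold. Tnip2 and Cyld were not called.

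Most feedback inhibitors were higher at 10 nM 1 h. Among MAP kinase phosphatases and related inhibitors 14 of 19 were higher at 10 nM 1 h, with a median of 1.45. Dusp1, which dephosphorylates p38 and JNK, was at 43.4 and 51.9 against 1123 and 1042 CPM (22.7-fold), and Dusp5, a nuclear ERK phosphatase, at 5.69 and 4.21 against 134 and 125 CPM (26.3-fold). Dusp6 and Rgs2 went the other way. Dusp6, a cytosolic ERK phosphatase, was at 16.7 and 15.6 against 6.22 and 7.14 CPM, and Rgs2, which limits G protein signalling, at 60.7 and 67.4 against 28.9 and 30.0 CPM; both were chosen here after their values were seen. In the 10 nM 2 h group Dusp6 was lower still, at 1.35 and 2.80 CPM. Of 16 mRNA decay, SOCS and anti-inflammatory genes, 12 were higher at 10 nM 1 h. Zfp36, which destabilises cytokine mRNA, was 13-fold higher, and Socs3, an inhibitor of cytokine receptor signalling, was at 118 and 133 against 1858 and 1786 CPM (14.5-fold). Il10 was at 6.10 and 6.60 against 165 and 153 CPM (25-fold), and at 0.03 nM 2 h it was not called against untreated cells (log2 difference 0.42, adjusted p = 0.42), whereas Socs3 was at 5.38 on that scale.

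Most genes that usually rise late were also higher at 10 nM 1 h. Of 14 genes that commonly depend on new protein, 10 were higher at 10 nM 1 h and 4 were not called, with a median of 1.90. Most of these genes are also members of other lists used here, such as Il6 and Il12b among the cytokines. Il6 was at 0.986 and 0.717 against 74.8 and 69.1 CPM (84.9-fold), and Il12b, a subunit of interleukins 12 and 23, at 4.68 and 3.80 against 235 and 222 CPM (54.0-fold). Both had higher values at 10 nM 2 h, at 133 and 140 CPM for Il6 and 349 and 367 CPM for Il12b. Mmp13, a collagenase, was at 10.1 and 9.64 against 116 and 146 CPM (13.3-fold). Nos2, the inducible nitric oxide synthase, was at 0.548 and 0.574 against 2.69 and 4.47 CPM (adjusted p = 0.021), a call that was lost without the experiment 2 library at 10 nM 1 h or without either 0.03 nM 2 h library (adjusted p from 0.088 to 0.14). Irg1, which makes itaconate, is not among these 14 genes but on a list of effector enzymes. Of 19 tested genes on that list 14 were higher at 10 nM 1 h, with a median of 1.51. Irg1 was at 305 and 353 CPM at 0.03 nM 2 h, from 1.29 and 3.42 CPM in untreated cells. It stood at 1960 and 2196 CPM at 10 nM 1 h (6.31-fold, adjusted p = 0.013). Without either 0.03 nM 2 h library the Irg1 call was lost (adjusted p = 0.079 and 0.095).

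**Figure D3:**
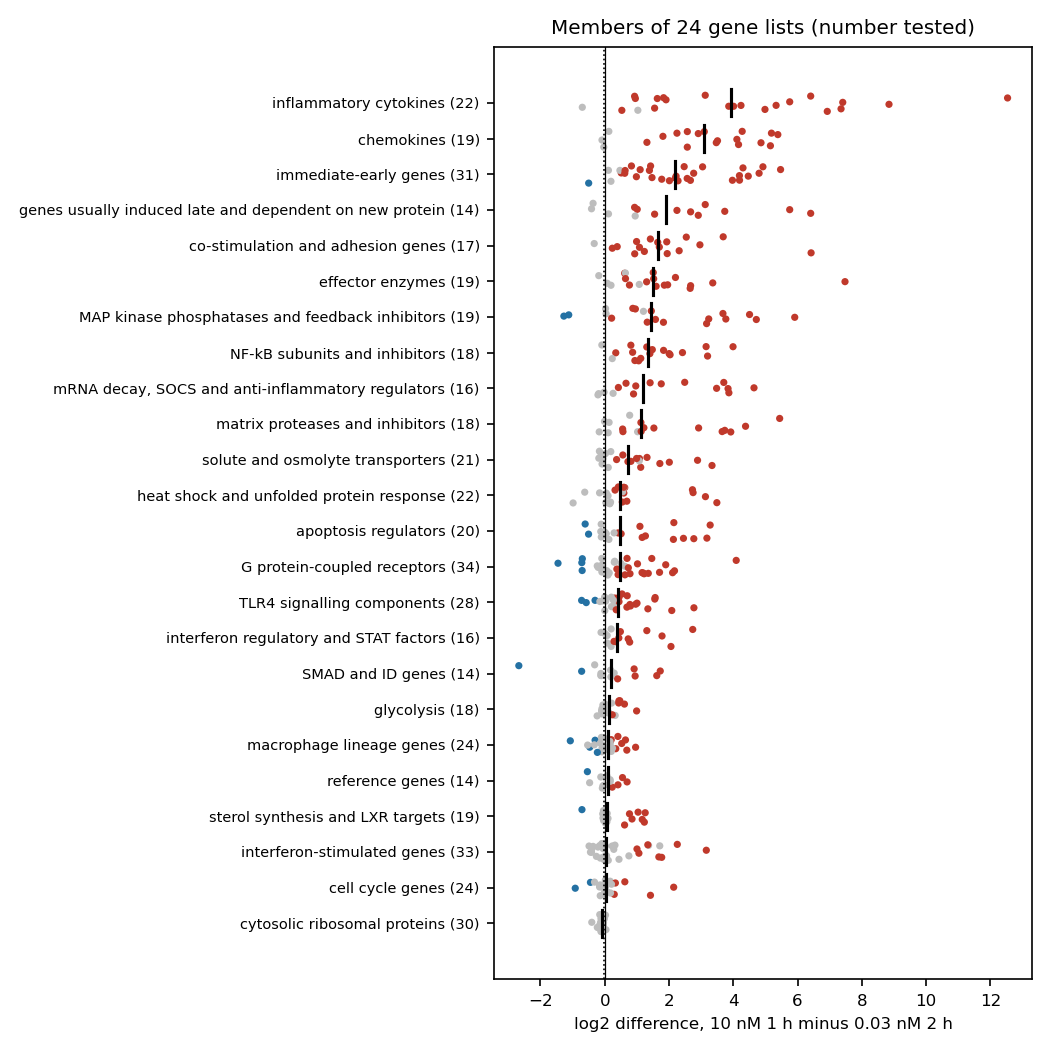
Log2 difference, 10 nM 1 h minus 0.03 nM 2 h, of each tested member of 24 gene lists; red, called higher at 10 nM 1 h; blue, called higher at 0.03 nM 2 h; grey, not called; black ticks, list medians; dotted line, median of all genes (-0.02). Cytokines and chemokines have the highest medians, the point farthest right is Il23a (0 counts at 0.03 nM 2 h, so its fitted value is no measured fold), and interferon-stimulated genes, cell cycle genes and ribosomal protein genes centre near 0.

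Interferon-stimulated genes centred near the median of all genes. Of 33 genes 7 were higher at 10 nM 1 h, beside 18.4% of all tested genes, 26 were not called, and the median was 0.03. The median turned to -0.14 without the experiment 2 library at 10 nM 1 h and to -0.04 without the experiment 1 library at 0.03 nM 2 h. The intervals do not show that the groups were alike, since only 9 of the 33 lay within 2-fold. The called genes included Gbp5 and Gbp2, GTPases of host defence (8.94-fold and 2.53-fold), and Ifih1, a sensor of double-stranded RNA, at 98.0 and 92.2 against 461 and 448 CPM (4.78-fold). Ifit1, Rsad2 and Isg15, chosen after their values were seen, were at log2 differences of 1.77, 1.68 and 1.36, the last not called (adjusted p = 0.079; 0.00504 with a replicate block). The calls of Ifit1 and Rsad2 were lost without either 0.03 nM 2 h library (adjusted p from 0.066 to 0.11), and that of Rsad2 also without the experiment 2 library at 10 nM 1 h (adjusted p = 0.054). At 10 nM 2 h Ifit1 reached 2329 and 2541 CPM against 371 and 375 CPM at 10 nM 1 h. The count was 3 without the experiment 2 library at 0.03 nM 2 h and 4 without that of experiment 1, and a fit of the 4 libraries alone called 11 higher and 2 lower.

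Receptors, kinases and surface molecules gave intermediate values. Of 17 co-stimulation and adhesion genes 16 were higher at 10 nM 1 h, with a median of 1.65, among them Icam1 (567 and 590 against 2931 and 2826 CPM) and Cd83 (5.80-fold). TLR4 signalling components had a median of 0.40. Of 28 genes 16 were higher and 3 (Tirap, Traf3 and Tab1) lower, beside 18.4% and 16.6% of all tested genes. The mRNA of the receptor itself, Tlr4, was not called (0.32, adjusted p = 0.085), while its co-receptor gene Cd14 was at 1007 and 1157 against 3185 and 3233 CPM and the kinase gene Ripk2 was 6.84-fold higher. Of 16 interferon regulatory and STAT factors 10 were higher at 10 nM 1 h, led by Irf1 (4.17-fold) and Irf4.

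The medians of housekeeping and metabolic groups lay close to the median of all genes. Of 30 cytosolic ribosomal protein genes 0 were called by edgeR, 2 had an unadjusted p below 0.05, DESeq2 called 1 and limma on the rlog values 0, and all 30 intervals lay within 2-fold. Other edgeR fits did call them: 30 were lower at 10 nM 1 h with scaling by totals, 10 were lower without the experiment 1 library at 0.03 nM 2 h, and 2 were higher with the exonic length offset (5 with the replicate block added). Their median was 0.07 in experiment 1 and -0.19 in experiment 2. Glycolysis genes were called in 6 of 18 cases, all higher at 10 nM 1 h and led by Pfkfb3 (1.99-fold). Of 19 tested genes on the sterol list 7 were higher and 1 lower, with a median of 0.07. Cell cycle genes were called in 7 of 24 cases (5 higher, and Ccnd1 and Plk1 lower). Over all tested genes 18.4% were higher and 16.6% lower, 35% in either direction. With scaling by totals 2 glycolysis genes were higher and 9 lower, and 3 cell cycle genes were higher and 14 lower. Mki67, a marker of proliferating cells, was at 183 and 135 against 707 and 699 CPM. Of 14 reference genes 4 were higher and 1, Tbp, lower, beside 18.4% and 16.6% of all tested genes. With libraries scaled by totals the medians of the interferon-stimulated, macrophage lineage, SMAD and ID, glycolysis, sterol, cell cycle and reference lists turn negative; the exonic length offset turns the ribosomal protein median from -0.07 to 0.08, and leaving out the experiment 2 library at 0.03 nM 2 h turns it to 0.04.

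To describe responding genes by libraries outside the comparison, genes were classed by 10 nM 2 h against untreated cells. The classes share the dose of the 10 nM 1 h group, so the direction of their differences is partly set by the choice. Genes that answer the low dose alone cannot enter them, and Smad6, described below, is not among the induced genes. At 10 nM 2 h 1688 genes were called at least 2-fold higher (13.1% of tested genes, the induced genes) and 1684 at least 2-fold lower (13%, the repressed genes). Of the 1688 induced genes, 1027 (60.8%) were higher at 10 nM 1 h, 38 (2.25%) were higher at 0.03 nM 2 h and 623 were not called, 327 of them with an interval within 2-fold. The 38 became 21 without the experiment 1 library at 10 nM 1 h and 141 with scaling by totals. The median difference was 0.67, with 0.61 in experiment 1 and 0.72 in experiment 2. Against untreated cells the median of the induced genes was 1.06 at 10 nM 1 h and 0.39 at 0.03 nM 2 h. The distance between the groups grew with the size of the later response: from the lowest to the highest quartile of the rise at 10 nM 2 h, the medians were 0.38, 0.48, 0.76 and 1.96. In the highest quartile 306 of 422 genes were higher at 10 nM 1 h and 1 was higher at 0.03 nM 2 h.

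**Figure D4:**
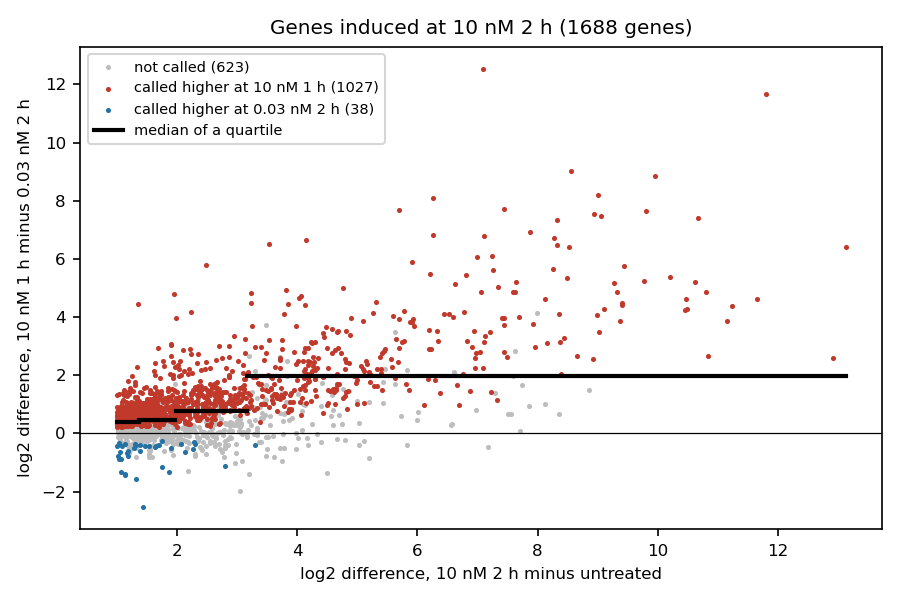
Log2 difference, 10 nM 1 h minus 0.03 nM 2 h, of 1688 induced genes against their log2 rise at 10 nM 2 h over untreated cells; red, called higher at 10 nM 1 h (1027); blue, called higher at 0.03 nM 2 h (38); grey, not called (623); black bars, medians of the quartiles of the rise (0.38, 0.48, 0.76 and 1.96). The spread at any one rise is wide, and the blue points lie among the genes with the smaller rises.

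Of 1684 repressed genes, 802 (47.6%) were higher at 0.03 nM 2 h, 65 were higher at 10 nM 1 h and 817 were not called, with a median of -0.48. Against untreated cells their median was -0.73 at 10 nM 1 h and -0.28 at 0.03 nM 2 h. The 65 is a soft count: it was 143 without the experiment 1 library at 0.03 nM 2 h, 41 without that of experiment 2, 26 without the experiment 1 library at 10 nM 1 h and 22 with scaling by totals.

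Txnip (chr3:96361880-96365780 in mm9), an arrestin that restrains glucose uptake and binds thioredoxin, was at 789 and 786 CPM in untreated cells, 479 and 453 CPM at 0.03 nM 2 h and 39.0 and 52.4 CPM at 10 nM 1 h. It was 10.2-fold higher at 0.03 nM 2 h (log2 difference -3.35 ± 0.12, adjusted p = 5.9e-09). At 10 nM 2 h it was at 132 and 139 CPM, above the 1 h level in both experiments. In GRCm38 an annotated antisense transcript overlaps the start of Txnip, and whether reads were counted by strand is not given in the sources used here. Bmf, a pro-apoptotic BH3-only gene, was at 32.3 and 26.4 against 4.51 and 4.78 CPM (6.30-fold). Cebpa, a factor of myeloid identity, was 2.10-fold higher at 0.03 nM 2 h. Its list did not follow it. Of 24 macrophage lineage genes 4 were higher at 0.03 nM 2 h and 7 at 10 nM 1 h, with a median of 0.10. Over all tested genes the shares were 16.6% and 18.4%.

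Zinc finger genes stood out by name among the genes lower at 10 nM 1 h. Of the 12 largest differences in that direction, 6 were in genes named Zfp and a number: Zfp60, Zfp472, Zfp955a, Zfp157, Zfp553 and Zfp709. Most such genes encode C2H2 zinc finger proteins, many of them repressors of transcription. Zfp60 (chr7:28516428-28536708 in mm9) was at 7.69 and 6.27 CPM at 0.03 nM 2 h and 0.520 and 0.555 CPM at 10 nM 1 h (12.9-fold higher at 0.03 nM 2 h, adjusted p = 7.7e-07), with 7.81 and 8.29 CPM in untreated cells. Zfp472 was at 6.46 and 6.07 against 0.520 and 0.952 CPM (8.40-fold). Neither was called at 0.03 nM 2 h against untreated cells, with log2 differences of -0.21 (adjusted p = 0.58) and -0.50 (adjusted p = 0.13). Zfp472 was below its untreated 8.72 and 9.04 CPM in both experiments. Of the 6, Zfp157 alone was called lower than untreated at 0.03 nM 2 h (-0.65, adjusted p = 0.018). Across all 322 tested genes named in this way, a group chosen after these values were seen, 208 (64.6%) were higher at 0.03 nM 2 h and 22 (6.83%) were higher at 10 nM 1 h, beside 16.6% and 18.4% over all genes. Their median was -0.95, with -0.97 and -0.87 in experiments 1 and 2. Their median against untreated cells was -1.10 at 10 nM 1 h and -0.16 at 0.03 nM 2 h. The name also takes in Zfp36 and its relatives, which are RNA-binding proteins and not of this type. Members that share sequence may share reads, so single values are less certain than the count. With exonic length as an offset 217 were higher at 0.03 nM 2 h, and without any one library 170 to 196 were; the 22 became 14 without the experiment 2 library at 0.03 nM 2 h and 12 with scaling by totals.

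A small set of genes was raised by the low dose and lower at the high dose. Smad6 (chr9:63800883-63869866 in mm9), an inhibitor of signalling by bone morphogenetic proteins, was at 0.881 and 1.13 CPM in untreated cells, 9.52 and 12.8 CPM at 0.03 nM 1 h, 16 and 13.9 CPM at 0.03 nM 2 h and 2.54 and 2.14 CPM at 10 nM 1 h. It was 6.38-fold higher at 0.03 nM 2 h than at 10 nM 1 h (log2 difference -2.67 ± 0.20, adjusted p = 1.4e-06). Id1, a target of the same pathway, was raised in both groups (log2 differences from untreated of 3.05 at 0.03 nM 2 h and 2.74 at 10 nM 1 h), and its 5.12 and 6.84 CPM overlapped with 4.40 and 5.23 CPM. Its interval does not show that the groups were alike (log2 difference -0.31 ± 0.28, adjusted p = 0.42).

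Genes that the low dose raised at 1 h were compared in the same way, because those libraries are outside the comparison. At 0.03 nM 1 h 184 genes were called higher than untreated (1.42% of tested genes), of which 82 by at least 2-fold (0.635%). Of the 82, 73 were higher at 10 nM 1 h and 1, Smad6, was higher at 0.03 nM 2 h. Of the 184, 150 (81.5%) were higher at 10 nM 1 h and 16 (8.70%) were higher at 0.03 nM 2 h, a class added after values were seen. The second share is below the 16.6% of all tested genes. Neat1, St3gal5, Rab32, Csf2rb and Ifngr2 are among the 16. Neat1, the noncoding RNA that builds paraspeckles, was at 461 and 567 CPM in untreated cells, 695 and 891 CPM at 0.03 nM 2 h and 233 and 286 CPM at 10 nM 1 h (3.06-fold). St3gal5, which makes the ganglioside GM3, was at 60.1 and 56.7, 116 and 127, and 64.7 and 64.5 CPM in the same order. Csf2rb and Ifngr2, subunits of the GM-CSF and interferon gamma receptors, were each 1.26-fold higher at 0.03 nM 2 h. Nr1h3 and Ccnd1 are not among the 16: neither was called against untreated cells at 0.03 nM 1 h (adjusted p = 0.099 and 0.57), and Ccnd1 was not called at 0.03 nM 2 h either (adjusted p = 0.087). Nr1h3, which encodes the oxysterol receptor LXR alpha, was at 68.9 and 85.3 against 43.4 and 50.9 CPM, a call lost without the experiment 2 library at 0.03 nM 2 h (adjusted p = 0.055). Ccnd1, cyclin D1, was at 156 and 175 against 80.0 and 95.2 CPM, and its call was lost without the experiment 1 library at 10 nM 1 h or without either 0.03 nM 2 h library (adjusted p from 0.052 to 0.12).

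Other genes dipped at 10 nM 1 h before a later rise. Ccnj, a cyclin, was at 9.08 and 9.16 CPM in untreated cells, 8.98 and 7.65 CPM at 0.03 nM 2 h, 1.01 and 1.82 CPM at 10 nM 1 h and 24.5 and 24.6 CPM at 10 nM 2 h. It was 5.80-fold higher at 0.03 nM 2 h than at 10 nM 1 h. Zfp319 and Usp42, chosen after their values were seen, had the same order: Zfp319 was at 25.5 and 23.7 against 8.15 and 10.0 CPM and reached 51.3 and 54.2 CPM at 10 nM 2 h. In these genes the low dose at 2 h was not called against untreated cells.

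The opposite case, a gene lowered by the low dose and not by the high dose at 1 h, was found for single transporters. It was not the rule on their list. Of 21 solute and osmolyte transporters, 9 were called higher than untreated at 0.03 nM 2 h and 4 lower. In the direct comparison 12 were higher at 10 nM 1 h and 0 at 0.03 nM 2 h, beside 18.4% and 16.6% of all tested genes. Slco4a1, an organic anion transporter, was at 64.3 and 53.9 CPM in untreated cells, 19.0 and 15.1 CPM at 0.03 nM 2 h and 192 and 152 CPM at 10 nM 1 h, a 10.1-fold difference (adjusted p = 1.8e-08). Slc5a3, the carrier of the osmolyte myo-inositol, was at 82.1 and 74.3, then 24.7 and 17.7, then 97.3 and 73.3 CPM (4.03-fold), and Slc38a2, an amino acid transporter that responds to osmotic stress, at 220 and 219, then 161 and 118, then 401 and 334 CPM (2.63-fold). Slc5a3 and Slc38a2 were chosen after their values were seen, and Slc38a2 is not on the list. Slco4a1 and Slc5a3 were also low at 0.03 nM 1 h, at 17.8 and 17.8 CPM for Slco4a1 and 30.2 and 23.9 CPM for Slc5a3. Whether handling or medium contributes was not tested. Irf4, a factor of alternative activation, was not called at 0.03 nM 2 h against untreated cells (log2 difference -0.81, adjusted p = 0.0502). It was at 5.07 and 3.91 CPM in untreated cells, 3.07 and 2.08 CPM at 0.03 nM 2 h and 17.0 and 17.2 CPM at 10 nM 1 h. Bcl2l11, the pro-apoptotic gene for BIM, was at 152 and 132 against 793 and 758 CPM, and its difference from untreated cells was 0.00 at 0.03 nM 2 h and 2.45 at 10 nM 1 h.

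Side by side, the 2 groups' differences from untreated cells, which share the untreated libraries, stand in different ratios from gene to gene. On the log2 scale Tnf was at 4.72 (0.03 nM 2 h) and 8.73 (10 nM 1 h), Nfkbia at 2.57 and 4.60, Cxcl1 at 6.39 and 11.77, Irg1 at 7.13 and 9.79, and Socs3 at 5.38 and 9.24. Fosl2 was at 0.22 and 2.98, Il10 at 0.42 and 5.07, Errfi1 at 1.01 and 6.92, and Dnajb4, a heat shock co-chaperone, at 0.36 and 3.09. The first 5 genes, Errfi1 and Dnajb4 were raised in both groups, Fosl2 and Il10 were not called at 0.03 nM 2 h, and Smad6 (3.89 and 1.21) and St3gal5 (1.06 and 0.15) lie on the other side.

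Gene span, the distance from the first to the last exon, ran with the difference. From the quartile of the shortest to that of the longest genes the median difference over all tested genes was -0.20, -0.11, 0.02 and 0.24, and over repressed genes -0.79, -0.66, -0.46 and -0.03. In the longest repressed genes the experiments disagreed in sign (-0.10 in experiment 1 and 0.08 in experiment 2). In the induced genes the median was 0.95 for the shortest and 0.62 for the longest, the latter 0.49 in experiment 1 and 0.70 in experiment 2. The slope over all genes was present in both experiments and steeper in experiment 2, in which the medians ran from -0.28 to 0.34, against -0.10 to 0.16 in experiment 1. With exonic length as an offset the medians over all genes ran from -0.09 to 0.12 and over repressed genes from -0.70 to -0.18. Without the experiment 2 library at 0.03 nM 2 h they ran from -0.12 to 0.14 over all genes and from -0.77 to -0.13 over repressed genes. Without the experiment 1 library they ran from -0.28 to 0.34 and from -0.86 to 0.11, so that the sign for the longest repressed genes turned. The part of the length difference between the libraries in what is left was not tested.

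**Figure D5:**
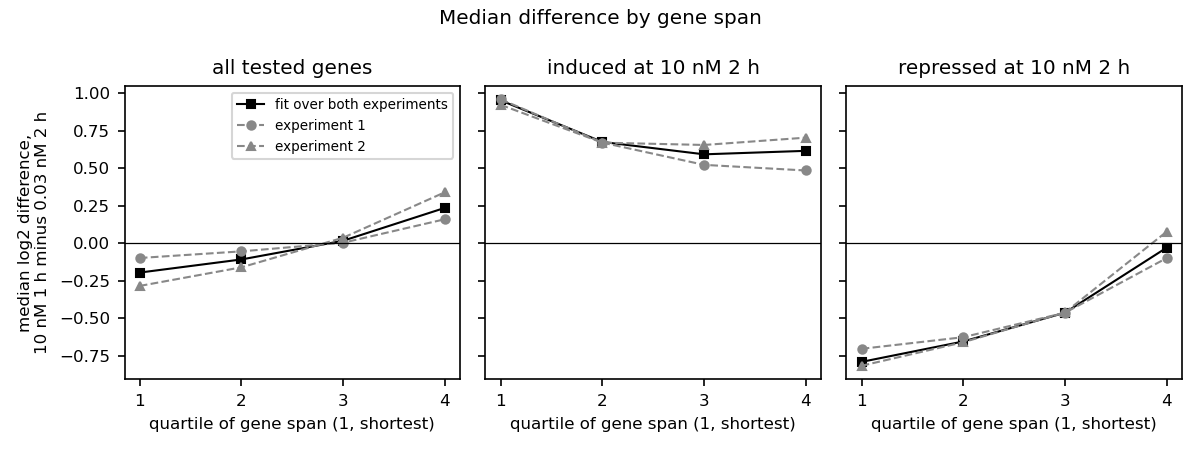
Median log2 difference, 10 nM 1 h minus 0.03 nM 2 h, in quartiles of gene span (1, shortest) for all tested genes, induced genes and repressed genes; black squares, fit over both experiments; grey circles and triangles, experiments 1 and 2 alone. The repressed genes climb from -0.79 to -0.03, and over all genes both experiments climb, experiment 2 more steeply.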

How the data were processed

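RNA was measured in 10 libraries of bone-marrow-derived macrophages, and the 2 groups of 2 compared here were taken from one fit to all of them. The mm9 genome, TopHat2 2.0.11, DESeq2, featureCounts 1.4.5-p1 and bcl2fastq 2.15.0.4 are listed, without roles, in the submitters' processing notes. The deposited counts are whole numbers of reads per gene, with the columns of featureCounts, per the file headers. The strand setting is not given in the sources used here, so overlapping genes of opposite strands may share reads. The authors' second table holds rlog values, which are on a log2 scale, and was used in 1 alternative.

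Counts were analysed with edgeR 4.0.16 (R 4.3.3): filterByExpr on the 5 groups, TMM scaling, and a robust quasi-likelihood fit with 1 mean per group and 5 residual degrees of freedom, with Benjamini-Hochberg adjustment over 12918 genes. Standard errors and 95% intervals are Wald values of that fit. Differences per experiment are log2 CPM differences with a prior count of 2. The fit was tested on simulated counts with added changes. It recovered 66.2%, 84.8% and 98.5% of genes changed by 0.585, 1 and 2 on the log2 scale, and called 8 of 12718 unchanged genes. The simulation held no difference between libraries by exonic length, so it cannot show how the fit copes with the one seen here. Library totals ran from 33179599 to 42167096 counts, which cover counting error only. Named genes are the 12 largest differences each way (called, mean of at least 1 log2 CPM over the 4 libraries, same sign in both experiments), up to 4 members of each of 24 lists by smallest p, and a fixed panel. Members that are the exceptions of a list and genes said to be so were named after their values were seen. The comparison, lists and classes were chosen with earlier results of these data known. Promoters are from RefSeq (GRCm38.p6), matched by symbol.

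The labels number the experiments, and same-numbered deviations of the 2 compared groups correlated at 0.20 over 6871 genes (from -0.33 to 0.61 over all 10 pairs of groups). The planned fit has no replicate block. Alternatives were the block, the 4 libraries alone, DESeq2 size factors or library totals as scaling, 2 other filters, DESeq2 1.42.0, limma 3.58.1 on rlog values, an exonic length offset with and without the block, and each of the 4 libraries left out.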

Additional observations from a re-analysis of the deposited data

How the results depend on the processing

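Of 141 named genes 14 lost their call in at least 1 alternative and 6 gained one. No called difference changed sign, but 2 genes that were not called did: Fos with scaling by library totals (-0.10) and Rps18 with the exonic length offset (0.03 with and without the replicate block). With the experiments as a replicate block 4657 genes were called against 4515, and among the named genes the block changed the call of Isg15 alone, which it added. Scaling by library totals changed most counts: 6971 genes called, 1122 higher at 10 nM 1 h and 5849 at 0.03 nM 2 h (1024 by 2-fold), 141 induced genes higher at 0.03 nM 2 h, 22 repressed genes higher at 10 nM 1 h, 2 (at least 2-fold) and 25 (any fold) of the genes raised at 0.03 nM 1 h higher at 0.03 nM 2 h, and 12 Zfp genes higher at 10 nM 1 h. On rlog values, which shrink differences, limma called 350 and 143 genes at 2-fold. The exonic length offset gave 2 genes induced at 0.03 nM 1 h and higher at 0.03 nM 2 h, and with the replicate block it gave 59 induced genes higher at 0.03 nM 2 h.

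Without 1 of the 4 libraries, 2875 to 5742 genes were called, 1520 to 3078 higher at 10 nM 1 h and 1270 to 2664 at 0.03 nM 2 h. Of induced genes 21 to 41 were higher at 0.03 nM 2 h, of repressed genes 26 to 143 at 10 nM 1 h, of genes induced at 0.03 nM 1 h 1 to 2 at 0.03 nM 2 h, and of Zfp genes 14 to 30 at 10 nM 1 h. Such a fit assumes that the lone library of a group varies like the others. The cause of these changes was not tested. Genes with few counts, such as Csf2 at 0.03 nM 2 h, have no reliable fold at this depth.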

Other observations

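One gene was high in a single library. Nov, which encodes a secreted matricellular protein, was at 1212 CPM in the experiment 1 library of 10 nM 1 h and at 0.397 CPM in that of experiment 2, with 0.193 to 2.84 CPM in the other 8 libraries. It was not called (adjusted p = 0.076 in edgeR).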
